A study of Rattus norvegicus with 15 samples.

Results

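Kininogens are the plasma proteins that carry the kinin peptides, and the bradykinin receptors are the cell surface receptors on which those peptides act. Every probe set whose platform symbol was, or contained, Kng1, Kng2, Kng2l1, Bdkrb1 or Bdkrb2 was taken, which gave 5 of the 10959 genes and 8 of the 15923 probe sets of the array, 4 for kininogens and 4 for receptors. A single kininogen probe set is assigned to Kng1, Kng2 and Kng2l1 together and is called the shared probe set. A further 3 probe sets are assigned to Kng2l1 alone, 1 to Bdkrb1 and 3 to Bdkrb2; in the order of their platform identifiers they are called Kng2l1 a, b and c and Bdkrb2 a, b and c. All 8 probe sets passed the filter on low signals, and none carries Kng1 or Kng2 alone.

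The study followed the early growth of a collateral brain artery after blood flow to the brain had been reduced without a stroke. RNA came from the posterior cerebral artery of the operated side in Sprague Dawley rats aged 7 weeks, and it was measured on 15 Affymetrix Rat230A arrays, 3 for each of 5 groups. In the 3-vessel occlusion (3VO) groups both vertebral arteries had been electrocoagulated and the left common carotid artery tied, and arteries were taken after 24 h or 3 d. In the sham groups, taken at the same times, these vessels had been exposed but not occluded, and the intact group had no operation. All operated rats had isoflurane anaesthesia and buprenorphine, and in every group the vessels were filled with latex under papaverine before dissection. Each array held RNA pooled from 8 rats, so the spread between arrays is not the spread between animals. The design text speaks of repeated hybridisation of pooled RNA, so p-values measure the spread between these arrays, which may be partly technical. For 1 sham array at 3 d (replicate 1) the treatment text describes the occlusion, whereas its title and source name say sham; it was kept as sham, and values without it are given where they bear on a result.

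In the kinin system, kallikreins cut kininogens and set free bradykinin or a close relative. The B2 receptor (Bdkrb2) is present at rest in vessels and nerves, and on endothelium it leads to nitric oxide and prostacyclin, whereas the B1 receptor (Bdkrb1) is usually scarce and is induced by injury and cytokines. Rats carry, beside the K-kininogen from which kallikreins release bradykinin, T-kininogens, which are acute phase proteins of rat liver and inhibitors of cysteine proteases. Which of the 3 symbols encodes which of these proteins was not assigned here.

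The 3 kininogen genes follow one another on rat chromosome 11 in the RefSeq annotation of assembly GRCr8, in the order Kng1, Kng2, Kng2l1, and Hrg and Fetub, 2 further genes of the cystatin superfamily, lie close by. Bdkrb2 and Bdkrb1 are next to each other on chromosome 6. The promoter windows of the kininogens, 250 bases before to 50 bases after each annotated start, let a reader see how alike the genes are there. The windows do not show which of these genes the shared probe set detects. They are RefSeq sequences of GRCr8, each read 5′ to 3′ on its gene's strand: Kng1 from chr11:91340099-91340398 on the minus strand, Kng2 from chr11:91418220-91418519 on the plus strand and Kng2l1 from chr11:91483169-91483468 on the plus strand. Capitals mark matches on either strand to TTNNGNAA, a C/EBP-like motif, TTCNNNGAA, a STAT-like motif, and CTGGGAA, the core of an interleukin-6 response element of rat acute phase genes.
Kng1: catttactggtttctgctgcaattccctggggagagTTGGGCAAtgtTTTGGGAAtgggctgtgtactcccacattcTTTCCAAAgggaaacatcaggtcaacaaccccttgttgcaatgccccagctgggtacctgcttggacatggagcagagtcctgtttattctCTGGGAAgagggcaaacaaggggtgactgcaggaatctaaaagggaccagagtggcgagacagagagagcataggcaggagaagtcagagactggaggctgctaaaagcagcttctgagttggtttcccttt
Kng2: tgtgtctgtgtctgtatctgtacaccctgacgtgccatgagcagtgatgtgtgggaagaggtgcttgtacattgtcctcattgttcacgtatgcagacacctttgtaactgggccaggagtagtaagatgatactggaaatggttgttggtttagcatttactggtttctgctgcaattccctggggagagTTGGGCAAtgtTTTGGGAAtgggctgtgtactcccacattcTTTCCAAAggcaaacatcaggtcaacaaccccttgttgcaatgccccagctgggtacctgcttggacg
Kng2l1: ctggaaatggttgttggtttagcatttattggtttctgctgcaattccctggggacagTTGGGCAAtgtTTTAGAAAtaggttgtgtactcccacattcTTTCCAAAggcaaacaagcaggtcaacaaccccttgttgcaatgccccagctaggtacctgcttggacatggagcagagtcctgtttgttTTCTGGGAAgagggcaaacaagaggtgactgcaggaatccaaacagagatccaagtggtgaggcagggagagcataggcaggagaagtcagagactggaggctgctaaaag
The windows are near copies that start at different places in 1 shared stretch. Where they overlap, Kng1 and Kng2 had 143 of 144 aligned bases in common (99.31%), Kng2 and Kng2l1 had 158 of 166 (95.18%) and Kng1 and Kng2l1 had 256 of 276 (92.75%). TTNNGNAA had 3 matches in each window, and 41.32% of the 33469 rat promoter windows in the table hold at least 1. CTGGGAA was found in the Kng1 and Kng2l1 windows (11.27% of all windows), and TTCNNNGAA in the Kng2l1 window alone (8.874% of all windows), where it overlaps CTGGGAA. The Kng2 window ends before the matching stretch, so the search says nothing of it there. These motifs were chosen after the sequences and the array values had been seen, and a match describes letters only.

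The deposited values are signals in array units, scaled by the authors to a common mean. Array medians lay between 2553 and 2938, and between 1.36% and 5.27% of an array's values were below 100. The 27 control probe sets for Bacillus subtilis transcripts, for which a rat has no gene, ranged over 4 to 1246 with a median of 113, and the highest on each array lay between 317 and 1246. The labels do not say whether such transcripts were added to the samples. This range, picked as a yardstick after the values had been seen, shows how high a probe set can read on these arrays with no rat target. It is a rough guide, since probe sets differ in brightness.

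The kininogen signal was highest in 3VO at 24 h, lower in 3VO at 3 d and lowest in the sham and intact groups. On the shared probe set the 3VO arrays at 24 h read 25861, 22275 and 9462, against 73.0, 236 and 559 on the sham arrays of that time. At 3 d the 3VO arrays read 3049, 1432 and 2716, against 367, 296 and 1086 on the sham arrays. The intact arrays read 306, 112 and 912. The 3 arrays of 3VO at 24 h stood far above all others, those of 3VO at 3 d came next, and neither 3VO group overlapped its sham group or the intact group. The 9 sham and intact arrays overlapped one another.

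**Figure D1:**
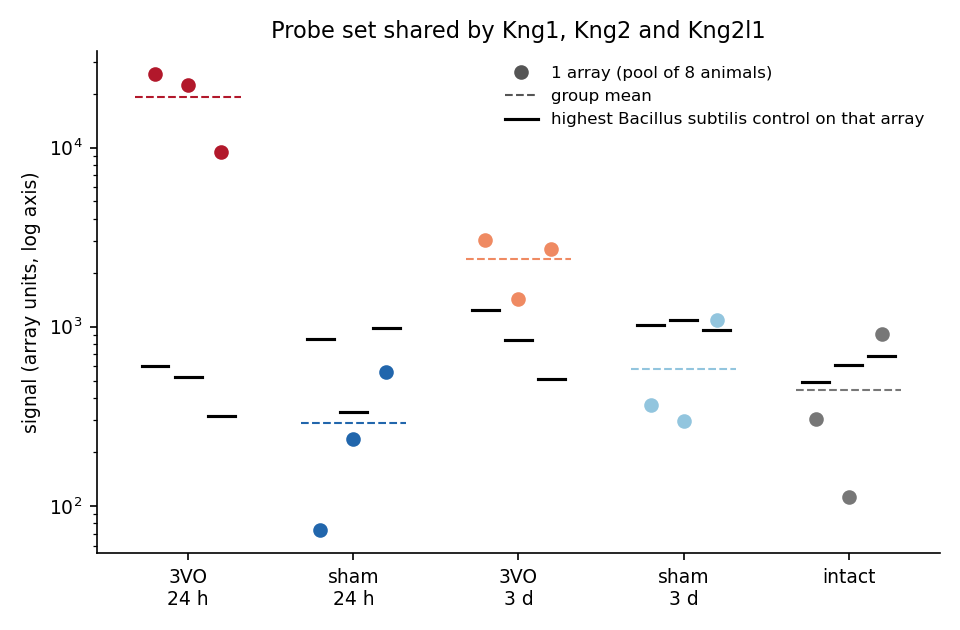
Signal of the probe set shared by Kng1, Kng2 and Kng2l1 (log axis, array units) on each of the 15 arrays, by group. Dots are arrays, dashed lines group means, and black bars the highest Bacillus subtilis control on that array; all 6 arrays of 3VO lie above their bar, and 2 of the 9 sham and intact arrays do.

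At 24 h the kininogen signal averaged 19199 ± 8621 in 3VO arteries and 289 ± 247 in sham arteries (SD, n = 3 each). The difference was 6.23 ± 0.76 on the log2(signal + 16) scale (limma SE, 95% interval 4.62 to 7.84), a 75.1-fold change (24.6 to 229.8), with a limma adjusted p of 0.00507. The adjustment runs over all 15737 probe sets tested, and this was the second smallest p among them. Only 8 probe sets passed in this comparison, 0.0508% of those tested, and all 8 were higher in 3VO; the kininogen probe set was the 1 member among them.

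The size of this change depends on how the low sham signals are read. Every sham array of 24 h lay below the highest Bacillus subtilis control of that array. All signals were then raised to at least 1246, the highest such control on any array. On that floor the kininogen estimate at 24 h was 14.1-fold higher in 3VO than in sham arteries (log2 value 3.82, no test or interval). Within each array, the kininogen signal stood between the 83.8th and 95.9th percentile of all probe sets in 3VO at 24 h, and between the 3.58th and 16.3rd percentile in sham at 24 h. Without replicate 2 of 3VO at 24 h the log2 difference was 6.06 and the limma adjusted p 0.0589, above the threshold of 0.05; it was below 0.05 when any other of the 15 arrays was left out.

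At 3 d the kininogen signal averaged 2399 ± 854 in 3VO arteries and 583 ± 437 in sham arteries (SD, n = 3 each). The log2 difference was 2.18 ± 0.76 (95% interval 0.56 to 3.79), or 4.52-fold, with an unadjusted p of 0.0116 and a limma adjusted p of 0.953. No probe set passed in this comparison (0% of those tested, 745 at an unadjusted p under 0.05). With signals raised to the floor of 1246 the estimate was 1.83-fold, with no test or interval. The 3VO array of replicate 2, at 1432, lay little above that floor. Within each array the kininogen signal stood between the 32.9th and 51.2nd percentile of all probe sets in 3VO at 3 d. The percentiles were 9.90 to 24.9 in sham at 3 d and 4.82 to 26.3 in intact arteries. Without the sham array whose treatment text describes the occlusion, the log2 difference was 1.97 and the limma adjusted p 0.804.

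The arrays of 3VO lay wholly above those of sham for kininogen at each time. Such a separation was found for 6.42% of probe sets at 24 h and 4.34% at 3 d, and no other member showed it. The effect of 3VO at 3 d minus that at 24 h was -4.06 ± 1.07 on the log2 scale (95% interval -6.34 to -1.78), with an unadjusted p of 0.0018 and a limma adjusted p of 0.999. No probe set passed in that test (0%, with 438 at an unadjusted p under 0.05), so a change of the effect with time was not established. The direct comparison of 3VO at 3 d with 3VO at 24 h gave a log2 difference of -2.94 (unadjusted p 0.00149, limma adjusted p 0.615), again with 0% of probe sets passing and 907 at an unadjusted p under 0.05; its arrays lay wholly lower at 3 d, as did those of 4.68% of probe sets.

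Compared with intact arteries, kininogen was higher in 3VO at 24 h by 5.71 ± 0.76 on the log2 scale (limma adjusted p 0.00446), and it was 1 of 29 probe sets that passed (0.184%). The intact arrays averaged 443 ± 417 (SD, n = 3), and the estimate on the raised floor was again 14.1-fold, with no test or interval. With the array number as a covariate the log2 difference was 5.77 and the adjusted p 0.211, and with only these 2 groups in the fit the adjusted p was 0.0742. The labels number the intact arrays last, after every operated array. In comparisons with intact arteries, array order and operation therefore cannot be told apart. At 3 d the difference between 3VO and intact arteries was 2.77 ± 0.76 (unadjusted p 0.00234, limma adjusted p 0.155), in a comparison where 35 probe sets passed (0.222%). Without intact replicate 3, whose signal of 912 was the highest of its group, that difference was 3.50 and passed with an adjusted p of 0.0359.

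Sham arteries showed no such signal. Sham arteries at 24 h differed from intact arteries by -0.52 ± 0.76 on the log2 scale (95% interval -2.14 to 1.09, limma adjusted p 0.795), and those at 3 d by 0.59 ± 0.76 (-1.02 to 2.21, adjusted p 0.747). No probe set passed in either comparison (0% each, with 2364 and 2236 at an unadjusted p under 0.05). The sham groups at 3 d and 24 h differed by 1.12 (adjusted p 0.883; 0% passing, 889 at an unadjusted p under 0.05). The order of the group means was therefore 3VO at 24 h, 3VO at 3 d, sham at 3 d, intact and sham at 24 h, and the last 3 could not be told apart at this signal.

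The probe sets of Kng2l1 alone did not follow the shared one. Kng2l1 a read 588, 106 and 299.9 in 3VO at 24 h, against 74.0, 941 and 678 in sham, and 1308, 413 and 355 in 3VO at 3 d, against 799, 652 and 1178 in sham. The groups overlapped at each time, and the highest single array was from 3VO at 3 d. The log2 difference between 3VO and sham was -0.45 (95% interval -2.28 to 1.37) at 24 h and -0.54 (-2.36 to 1.28) at 3 d, with limma adjusted p of 0.954 and 0.999. The intact arrays read 223, 197 and 54.0. The 3VO arrays at 3 d lay wholly above them, by 1.96 on the log2 scale (unadjusted p 0.0366, adjusted p 0.354), and so did the sham arrays at 3 d, by 2.50 (unadjusted p 0.0104, adjusted p 0.231); 10.3% and 9.86% of probe sets separated in this way in these comparisons.

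The arrays of a group were as scattered on Kng2l1 b and c. Kng2l1 b read 714, 487 and 448 in 3VO at 24 h, against 385, 107 and 926 in sham, and 993, 947 and 542 in 3VO at 3 d, against 777, 587 and 446 in sham; intact arrays read 248, 725 and 339.9. Its groups overlapped, with log2 differences of 0.62 (95% interval -0.70 to 1.95) at 24 h and 0.43 (-0.89 to 1.75) at 3 d. Kng2l1 c read 111, 261 and 23.0 in 3VO at 24 h, against 73.0, 32.0 and 307 in sham, and 67.0, 392 and 268 in 3VO at 3 d, against 60.0, 382 and 592 in sham; intact arrays read 190.0, 247 and 344. Its log2 differences were -0.0028 (-2.00 to 2.00) at 24 h and -0.31 (-2.31 to 1.69) at 3 d, and no array stood above that array's highest Bacillus subtilis control. Of the 15 arrays, 3 did so for Kng2l1 a and 5 for Kng2l1 b. Which of the 3 genes the shared signal came from was not tested, since no probe set measures Kng1 or Kng2 alone; the accession of that probe set belongs to Kng2 in RefSeq. Across the 15 arrays the shared signal correlated with the 3 Kng2l1 probe sets at Pearson's r of 0.06, 0.26 and -0.05 on the log2 scale.

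No difference was detectable for the B1 receptor. Bdkrb1 read 375, 1005 and 889 in 3VO at 24 h, against 933, 61.0 and 949 in sham at that time. It read 1021, 1205 and 1088 in 3VO at 3 d, against 126, 1213 and 375 in sham, and the intact arrays read 1069.8, 1408 and 859.8. The groups overlapped at each time, the 3 arrays of 3VO at 3 d were close together, and each sham group held 1 very low array beside at least 1 high one. The log2 difference between 3VO and sham was 0.79 ± 0.87 (95% interval -1.07 to 2.64, limma adjusted p 0.911) at 24 h and 1.45 ± 0.87 (-0.40 to 3.31, unadjusted p 0.115, adjusted p 0.999) at 3 d. Without sham replicate 2 the value at 24 h was -0.43, and without the sham array of the conflicting text the value at 3 d was 0.69. Against intact arteries the differences of 3VO were -0.64 at 24 h and 0.02 at 3 d, and those of sham -1.42 and -1.44, with adjusted p between 0.468 and 0.998. By group mean the order was intact, 3VO at 3 d, 3VO at 24 h, sham at 24 h and sham at 3 d. The 3VO arrays at 3 d lay wholly above those at 24 h, as did those of 9.34% of probe sets, but the log2 difference of 0.65 (95% interval -1.20 to 2.50) had an adjusted p of 0.954. The other neighbours in the order overlapped.

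Nor was a difference detectable for the B2 receptor. Bdkrb2 c read 1473, 1185 and 946 in 3VO at 24 h, against 608, 1461 and 1214 in sham, and 1128, 1064 and 928 in 3VO at 3 d, against 714, 579.9 and 2231 in sham; intact arrays read 669, 898 and 852. The groups of each time overlapped, and the sham group at 3 d held the highest and the lowest of all 15 arrays. The log2 difference between 3VO and sham was 0.20 (95% interval -0.77 to 1.17) at 24 h and 0.08 (-0.88 to 1.05) at 3 d. For Bdkrb2 c, changes of more than about 2.25-fold upward at 24 h and 2.08-fold upward at 3 d lay outside these intervals. The upper limits at 24 h and 3 d were 2.30-fold and 2.41-fold for Bdkrb2 a, and 1.86-fold and 2.96-fold for Bdkrb2 b. The lower limits at 24 h and 3 d were 0.39-fold and 0.40-fold for Bdkrb2 a and 0.33-fold and 0.52-fold for Bdkrb2 b. For Bdkrb2 c they were 0.59-fold and 0.54-fold. All these limits are for probe set signals in the range of the bacterial controls. The intact arrays lay below those of both 3VO groups, by 0.55 at 24 h and 0.37 at 3 d on the log2 scale (adjusted p 0.732 and 0.773), a separation shown by 7.59% and 10.3% of probe sets.

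Bdkrb2 a read 506, 904 and 1102 in 3VO at 24 h, against 1376, 709.9 and 619 in sham, and 1269.7, 512 and 907 in 3VO at 3 d, against 1201, 264 and 1906 in sham; intact arrays read 829.8, 1365 and 936. Its log2 differences were -0.09 (95% interval -1.38 to 1.20) at 24 h and -0.02 (-1.31 to 1.27) at 3 d, and all groups overlapped. Bdkrb2 b read 407, 403 and 507 in 3VO at 24 h, against 514, 593 and 594 in sham. These 3VO arrays lay wholly below the sham arrays, but only just, as did those of 9% of probe sets, and the log2 difference of -0.36 (-1.62 to 0.90) had an adjusted p of 0.943. At 3 d that probe set read 744, 661 and 277 in 3VO, against 138, 659 and 748 in sham, a log2 difference of 0.31 (-0.95 to 1.57); intact arrays read 189, 532 and 288. The 3 Bdkrb2 probe sets did not rank the arrays alike, with pairwise r of -0.11, 0.21 and 0.44 over the 15 arrays. Signals above the array's highest Bacillus subtilis control were found on 11, 2 and 11 arrays for Bdkrb2 a, b and c, and on 9 for Bdkrb1.

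**Figure D2:**
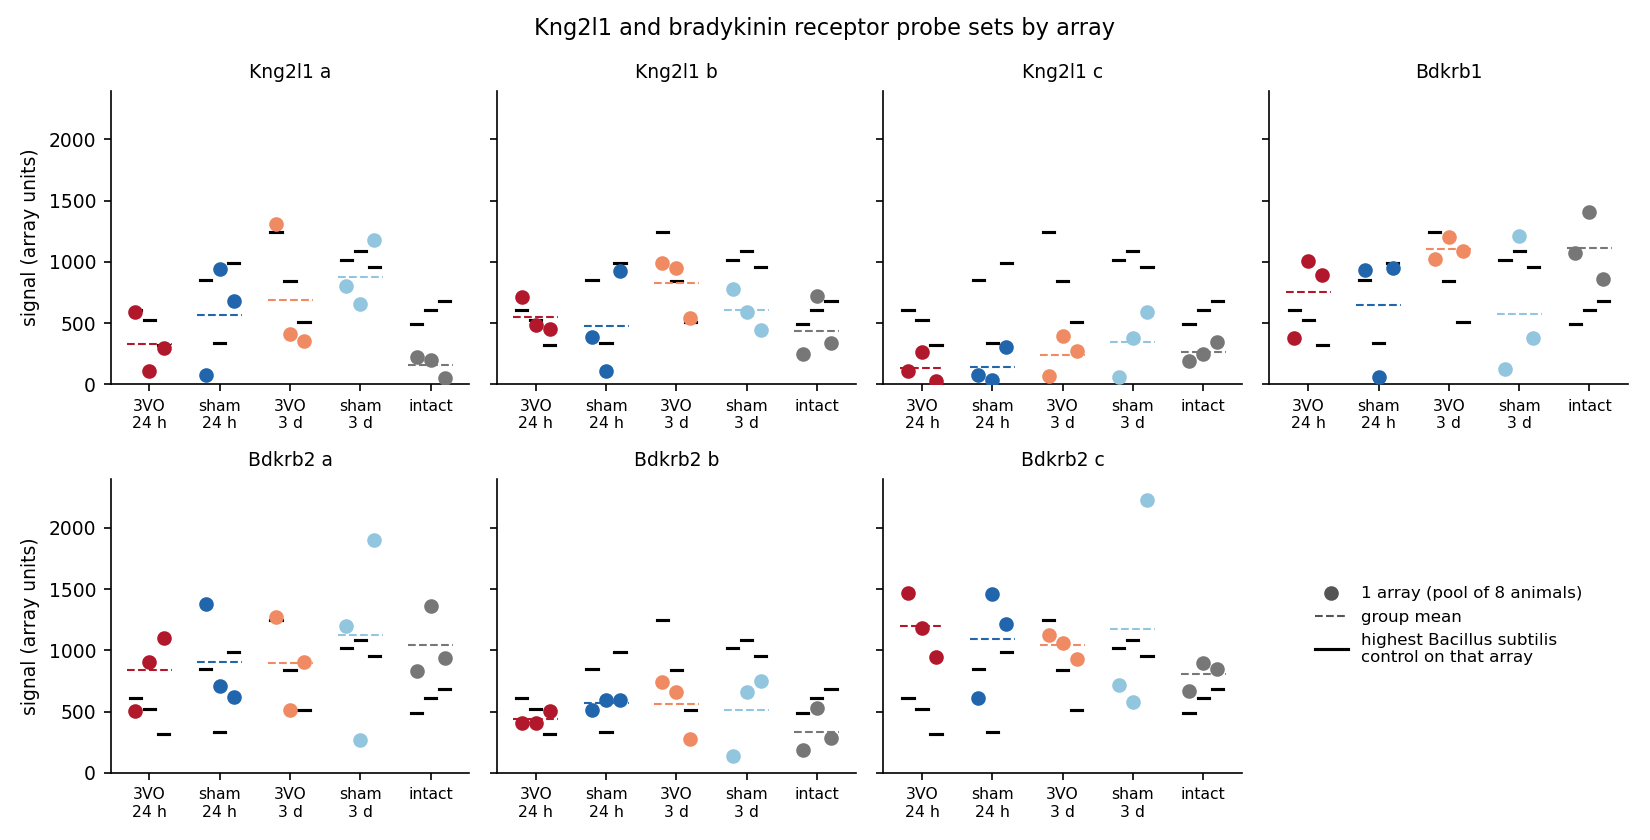
Signal (linear axis, array units) of the 3 Kng2l1 and 4 receptor probe sets on each array, by group, with group means as dashed lines and each array's highest Bacillus subtilis control as a black bar. Most dots lie below their bar, and 3VO and sham overlap at each time in every panel but that of Bdkrb2 b at 24 h.

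**Figure D3:**
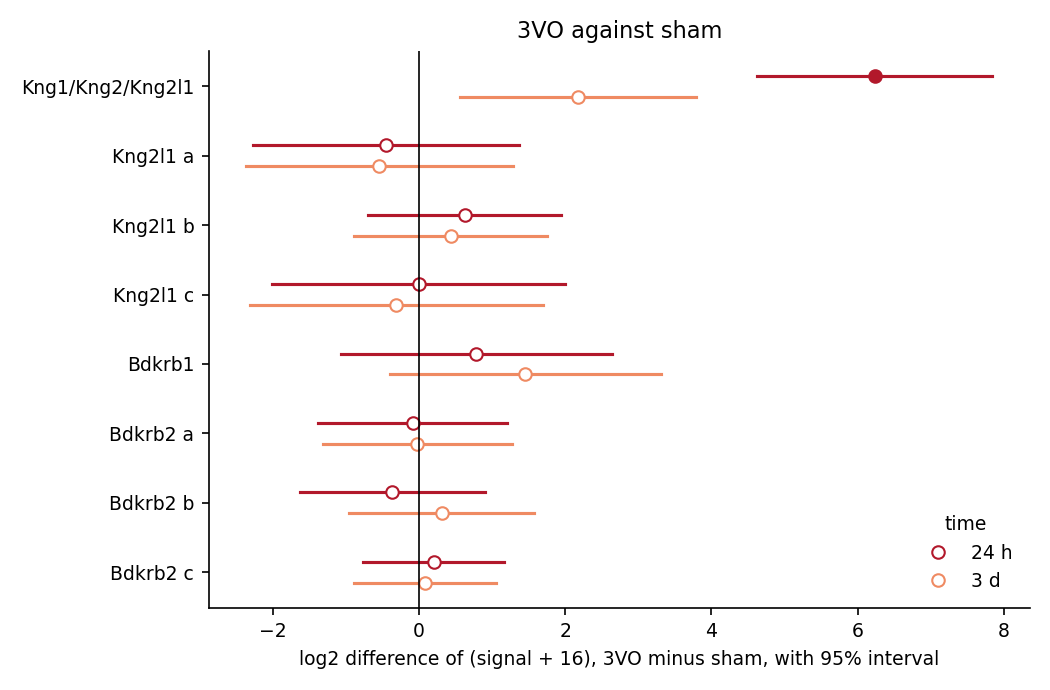
Log2 difference between 3VO and sham (signal + 16) with its 95% interval for each of the 8 probe sets at 24 h and 3 d; filled dots passed at a limma adjusted p under 0.05. The shared kininogen probe set at 24 h, at 6.23, is the only filled dot, and every interval of the other 7 probe sets includes 0.

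The genes whose log2 signal followed the shared kininogen probe set most closely over the 15 arrays were Timp1 (r = 0.91), Lcn2 (0.87), A2m (0.86), Lilrb4 (0.86), Pla1a (0.85), C1qb (0.85), Mcm3 (0.84) and Cp (0.83), out of 11305 probe sets with 1 symbol and a mean signal of at least 500. The points share groups and scaling, so r includes the differences between groups, and r within groups was not computed. Over the 12 operated arrays alone r lay between 0.81 and 0.90. Timp1, an inhibitor of matrix metalloproteinases, averaged 105595 ± 31953 in 3VO and 17436 ± 1087 in sham at 24 h, and 55398 ± 11124 in 3VO and 16523 ± 720 in sham at 3 d (SD, n = 3 each). Lcn2, an iron carrier and acute phase protein, averaged 14692 ± 7289 in 3VO and 2174 ± 346 in sham at 24 h, and 4475 ± 2709 in 3VO and 2505 ± 360 in sham at 3 d. Like kininogen, Timp1 and Lcn2 had their highest group mean in 3VO at 24 h and a lower one, still above that of sham, in 3VO at 3 d; Mcm3, with 2639 in 3VO at 3 d and 2547 in 3VO at 24 h, had the higher mean at 3 d.

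Cp, the copper-binding ferroxidase ceruloplasmin, averaged 46142 ± 3455 in 3VO and 11886 ± 1461 in sham at 24 h, and 27357 ± 12174 in 3VO and 9029.9 ± 4039 in sham at 3 d. Lilrb4, an inhibitory receptor of myeloid cells, averaged 4159 ± 1552 in 3VO and 346 ± 159 in sham at 24 h. The log2 differences at 24 h were 2.55 for Timp1, 2.63 for Lcn2, 1.68 for A2m, 3.57 for Lilrb4, 1.79 for Pla1a (a phospholipase) and 1.96 for Cp, all of which passed (adjusted p between 0.00069 and 0.0191), so that these 6 and kininogen make 7 of the 8 probe sets called. Without replicate 2 of 3VO, or replicate 2 or 3 of sham, at 24 h, or with no variance trend in the fit, none of the 6 but Timp1 passed; Lcn2, Lilrb4 and Cp also missed the threshold without replicate 1 of either group, and Lilrb4 and Cp without replicate 3 of 3VO (adjusted p up to 0.175 over all alternatives). C1qb, a chain of complement C1q, at 1.01 and Mcm3, a part of the replication helicase, at 0.45 did not pass. At 3 d none of the 8 passed, with log2 differences of 0.40 to 1.73. Where a gene had several probe sets the most correlated was taken, which for Cp is not the brightest. Since the genes were picked for likeness on these arrays, their values are a description.

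**Figure D4:**
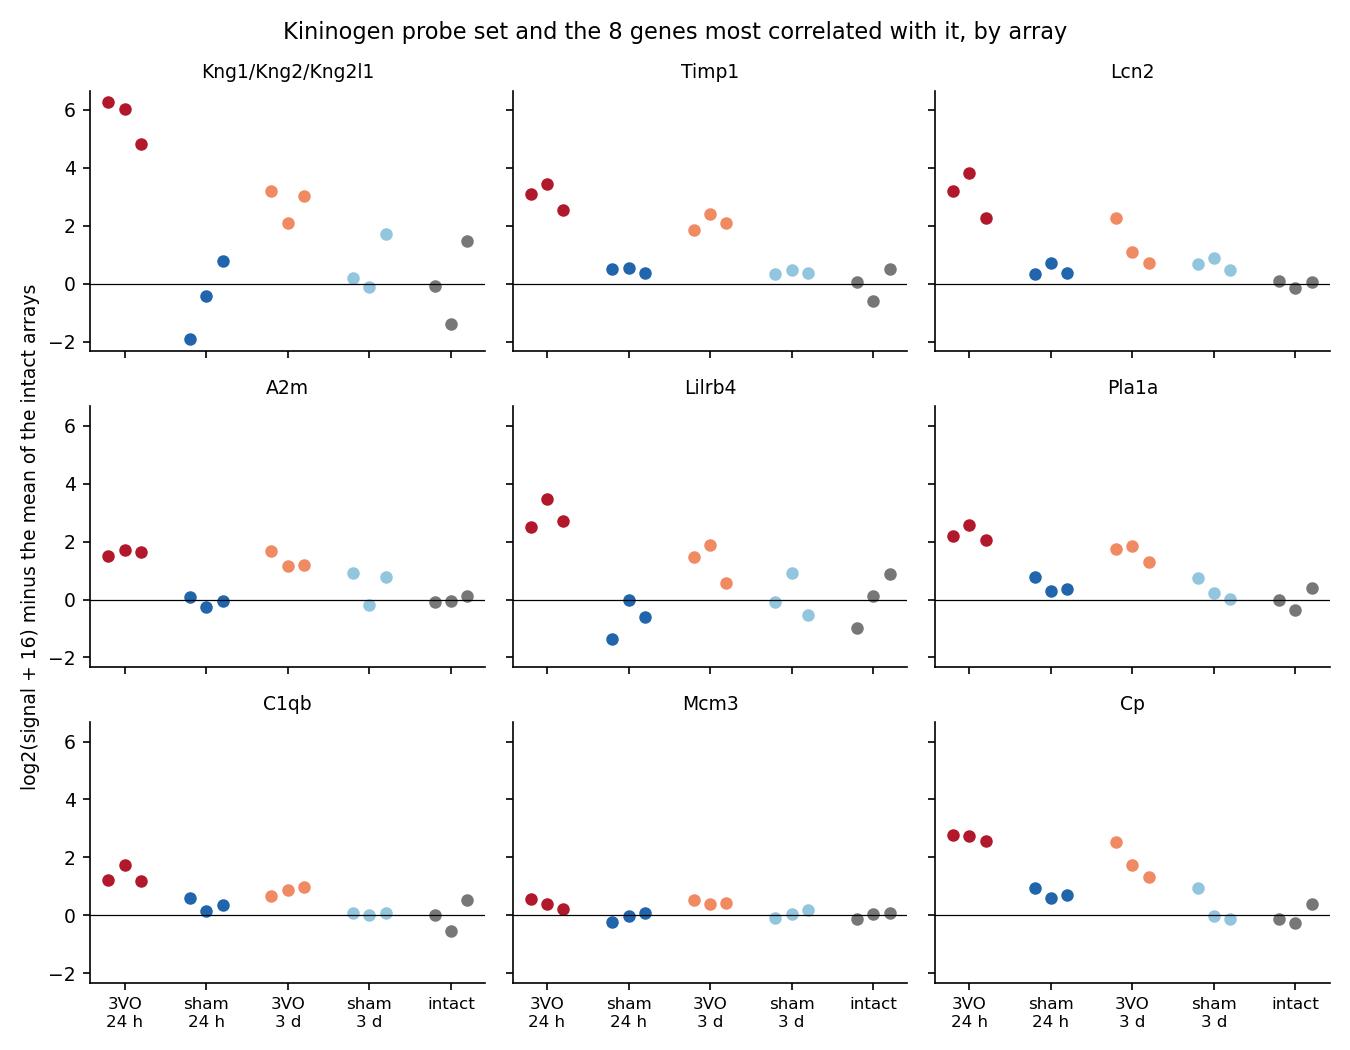
Log2(signal + 16) minus the mean of the intact arrays, for the shared kininogen probe set and the 8 genes most correlated with it, on each of the 15 arrays by group. In each panel the 3VO arrays at 24 h lie above the sham arrays, and the kininogen panel spans the widest range; its 3 arrays of 3VO at 24 h are the highest dots of the plot.

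For the receptor probe sets the closest genes were Pank4, Cflar, Lrrc7 and Tmem276 for Bdkrb1 (r of 0.80 to 0.82), and Dcaf6, Klc3, Gpx4 and Fitm2 for Bdkrb2 a (0.76 to 0.82). They were Nf2, Mmp9, Reg3g and Zc3h11a for Bdkrb2 b (0.82 to 0.86), and Alb, Trpm1, Relt and Mid1 for Bdkrb2 c (0.82 to 0.84). The 3 Bdkrb2 probe sets shared none of these genes. None of these 16 genes passed between 3VO and sham at either time.

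Among the genes that form kinins or bind kininogen, 8 of 19 listed had a tested probe set and none passed at 24 h or 3 d. Their median log2 difference at 24 h was 0.18, beside -0.01 over all 10360 genes tested. The kallikrein Klk1, which cuts kininogen in tissues, averaged 908 ± 69.9 in 3VO and 487 ± 211 in sham at 24 h, a log2 difference of 0.96 (unadjusted p 0.0166, limma adjusted p 0.605). Its relative Klk1b3 stood at 457 ± 226 in 3VO and 88.0 ± 25.2 in sham, a difference of 2.10 (unadjusted p 0.0094, adjusted p 0.536), with signals inside the range of the bacterial controls on 11 of 15 arrays. Plaur, the urokinase receptor, to which kininogen binds, differed by 1.21 (adjusted p 0.845), and C1qbp, a further kininogen-binding protein, by 0.17 (adjusted p 0.87). Klk1 stood above the array's highest bacterial control on 10 of the 15 arrays, Plaur on 5 and C1qbp on all 15. Klkb1 (plasma kallikrein) and F12 (the clotting factor that activates it) had no tested probe set.

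Of the 8 listed inhibitors of kallikrein and of contact activation, 1 of 5 tested genes passed at 24 h. This was A2m, alpha-2-macroglobulin, which traps many proteases and is a major acute phase protein of the rat. A2m averaged 28665 ± 2323 in 3VO and 8936 ± 1074 in sham at 24 h (SD, n = 3 each), a log2 difference of 1.68 ± 0.23 (adjusted p 0.0105), which did not pass with no variance trend in the fit or without replicate 2 of 3VO, or replicate 2 or 3 of sham, of that time (adjusted p up to 0.0993). At 3 d it averaged 23801 ± 4844 in 3VO and 13853 ± 5077 in sham, a difference of 0.84 (adjusted p 0.703), and intact arteries stood at 9308 ± 788. Against intact arteries A2m was higher in 3VO by 1.62 at 24 h and 1.34 at 3 d (adjusted p 0.00815 and 0.0321); the call at 24 h was lost without replicate 2 of 3VO, with no variance trend and with the array number as a covariate (adjusted p up to 0.45). That at 3 d was lost in 12 of 29 alternatives (adjusted p up to 0.236): without any 1 of the 3VO arrays of that time, replicate 2 or 3 of sham at 24 h, or intact replicate 1 or 2, and with median centring, no variance trend, the array number or neuron markers as a covariate, or these groups fitted alone. Serping1, the C1 inhibitor and chief inhibitor of plasma kallikrein, differed by 0.32, Serpina4 (kallistatin) by -0.13 and Serpina3n by 0.14 at 24 h, with adjusted p of 0.858 to 0.973.

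None of the 14 tested genes (of 18 listed) for enzymes that break down kinins passed; the medians of their log2 differences were -0.02 at 24 h and -0.10 at 3 d. Ace, the angiotensin-converting enzyme that degrades bradykinin, averaged 2744 ± 915 in 3VO and 3353 ± 347 in sham at 24 h, a log2 difference of -0.35 (adjusted p 0.974). The smallest unadjusted p values were those of Anpep (aminopeptidase N, -0.30), Prep (-0.17), Xpnpep1 (-0.11) and Xpnpep2 (-0.49), with adjusted p of 0.669 to 0.929. Of the 10 cysteine proteases and relatives that kininogens can inhibit, or that resemble those, none passed either. The lysosomal cathepsins Ctss, Ctsz and Ctsc differed by 0.59, 0.58 and 0.61 and the calpain Capn2 by -0.42 at 24 h, with adjusted p of 0.615 to 0.774. In the cystatin superfamily, to which kininogens belong, none of 7 tested passed; Cst6 differed by 2.23 (unadjusted p 0.0108, adjusted p 0.545), Hrg by 0.40, Cst8 by -0.35, Cstb by 0.24 and Fetub, a neighbour of the kininogen genes, by -0.12.

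Downstream of the receptors, none of 28 tested genes passed against sham. Gucy1a1, a subunit of the nitric oxide receptor guanylate cyclase, averaged 9837 ± 762 in 3VO and 17440 ± 1999 in sham at 24 h, a log2 difference of -0.82 (unadjusted p 0.000258, adjusted p 0.151). Nos2, the inducible nitric oxide synthase, averaged 227 ± 51.8 in 3VO and 1904 ± 1524 in sham at 24 h (log2 difference -2.46, adjusted p 0.505), and it differed by 2.72 at 3 d (adjusted p 0.703). Its 3VO mean at 24 h lay below the highest bacterial control of each array in that group, the lowest of which was 317. The calcium release channels Itpr2 and Itpr1 differed by -0.41 and -0.54. Nos3, the endothelial nitric oxide synthase, differed by -0.76 (adjusted p 0.796) and Ptgs2, the inducible cyclooxygenase, by 0.07 (adjusted p 0.987) at 24 h. Against intact arteries 1 gene of the list passed at 3 d, the G protein subunit Gnai2, with 24360 ± 4283 in 3VO and 11708 ± 2887 in intact arteries (log2 difference 1.07, adjusted p 0.0321). Gnai2 did not pass there without any 1 of the 3VO arrays at 3 d, without replicate 2 or 3 of sham at 24 h or without intact replicate 1 (adjusted p up to 0.372 over all alternatives).

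Among 20 tested inducers of acute phase genes and of the B1 receptor none passed against sham, and the median log2 difference at 24 h was -0.08. Of the 20 genes, 14 stood above the highest bacterial control on every array and 1 on no array. At 24 h that control lay between 317 and 607 on the 3VO arrays and between 334 and 987 on the sham arrays. Il6, the cytokine that drives the acute phase in liver, averaged 356 ± 129 in 3VO and 295 ± 239.8 in sham at 24 h (adjusted p 0.912), within or below these ranges. Stat3, its transcription factor, differed by -0.08 and Socs3, its feedback inhibitor, by 0.37 (adjusted p 0.978 and 0.799). Cebpb, a factor at acute phase promoters, differed by 0.72, Jak2 by 0.50, Rela by -0.25 and Tnf by -2.74 (adjusted p 0.713, 0.794, 0.796 and 0.312). Tnfrsf1a, a receptor for tumour necrosis factor, was higher in 3VO at 3 d than in intact arteries by 0.70 (adjusted p 0.0459, but up to 0.343 and below 0.05 in only 11 of 29 alternatives), and no other gene of the list passed in that comparison.

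None of the 26 tested genes of the list of other liver plasma proteins, which does not hold A2m or Cp, passed between 3VO and sham. Of these, 12 were estimated higher and 14 lower in 3VO at 24 h, and the median log2 difference was -0.04. Only 9 of the 26 stood above the highest bacterial control on every array, and 4 did so on no array. Alb (albumin) averaged 1739 ± 90.0 in 3VO and 1330.4 ± 633 in sham at 24 h (log2 difference 0.48, adjusted p 0.876), Fga differed by 0.09 and Fgb by -0.39 (both fibrinogen chains), Apoa1 by -0.63 and Ttr (transthyretin, also made by choroid plexus) by -1.23. Itih3, Vtn and Mug1 had the smallest unadjusted p, with differences of 1.24, -0.78 and -1.95, followed by Hpx with 1.24 (adjusted p 0.675 to 0.834). The summed signal of the 12 hepatocyte markers ranged over 8453 to 12176 on the 3VO arrays and 9112 to 12225 on the sham arrays at 24 h, and Apoa1 and Tat were above the bacterial controls on no array.

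RNA of other cells was measured in the arteries, and markers of some read higher in 3VO than in sham at 24 h. The 9 tested macrophage markers of 11 listed were all higher in 3VO than in sham at 24 h and at 3 d, and the medians of their log2 differences were 0.83 and 0.81. Their summed signal ranged over 255413 to 373670 on the 3VO arrays and 172146 to 246294 on the sham arrays at 24 h, and over 213618 to 268188 in 3VO and 154358 to 186536 in sham at 3 d. No macrophage marker passed against sham; against intact arteries 4 of the 9 passed at 24 h and 2 at 3 d, beside 0.184% and 0.222% of all probe sets. Those comparisons as a whole depended on the fit: 1 probe set passed at 24 h once array number entered as a covariate, and 0 at 3 d with these groups fitted alone. The part of these cells in the kininogen signal was not tested, and in pooled tissue RNA more cells of a type and more RNA per cell cannot be told apart.

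All 9 tested neuron markers of 10 listed were also higher in 3VO at 24 h, the median of their log2 differences being 1.29, and their sums were 64268 to 139618 in 3VO and 39663 to 68955 in sham. Against intact arteries, 8 of the 9 were lower in 3VO at 24 h and 9 at 3 d (medians of -0.57 and -0.999). The sums in intact arteries, 85120 to 276139, reached the highest of all groups. With the mean of these markers as a covariate, the kininogen difference at 24 h was 6.35 (limma adjusted p 0.0144). The part of neuronal RNA in the kininogen signal was not tested. The 7 astrocyte markers were higher, with a median of 0.49 and sums of 218654 to 350716 in 3VO, 167638 to 244583 in sham and 295802 to 380147 in intact arteries, and the 7 smooth muscle markers lower, with a median of -0.65 and sums of 200961 to 285680 in 3VO and 332070 to 402219 in sham. In intact arteries the smooth muscle sums were 179665 to 341875, a range that holds the 3VO sums at 24 h. Against intact arteries the smooth muscle median in 3VO at 24 h was -0.29, with 6 markers lower and 1 higher. Smooth muscle markers lay above the highest bacterial control on every array, as did 6 endothelial markers. The 6 tested endothelial markers of 8 listed had a median of -0.22, the 4 neutrophil markers of 8 a median of 0.11, the 6 choroid plexus markers of 7 a median of -0.66 and the 8 leptomeningeal fibroblast markers a median of -0.23. No marker of any of these lists passed between 3VO and sham at 24 h or 3 d.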

How the data were processed

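RNA of the posterior cerebral artery was measured on 15 Affymetrix Rat230A arrays, 3 for each of 5 groups, each a pool of 8 rats. The deposited values are intensity signals that the authors made in GCOS (no version is given in the sources used here) and scaled to a global target, per the labels. The labels put that target at 500, but the 2% trimmed mean of each array was 5000, so the pseudocount and signal minimum used here are low on this scale. Arrays within a group correlated at r of 0.909 to 0.953.

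Signals were used as log2(signal + 16). Probe sets with a signal of at least 100 on at least 3 arrays were tested, 15737 of 15923, and 57 control probe sets were left out. limma 3.58.1 in R 4.3.3 fitted 5 group means to all 15 arrays (10 residual and 4.83 prior degrees of freedom, eBayes with a trend), with 2-sided tests and Benjamini-Hochberg adjustment within each of 9 contrasts at 0.05; the script was tested on simulated data. Symbols came from the platform table, and a gene of a list is represented by its brightest probe set. The number of arrays limits the precision. No genome build is named for the probe sets, and promoter windows are from RefSeq GRCr8.

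The members, gene lists, markers and named-gene rule were chosen with earlier results of these data known. The rule names every member, the 8 genes most like the shared kininogen probe set and 4 per receptor probe set, and from each list every gene that passed between 3VO and sham, up to 4 genes with the smallest p at 24 h and a few fixed ones. Fetub, Serpina3n and the genes that passed against intact arteries were named outside that rule, after their values were seen.

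Alternatives covered the pseudocount, filter, scaling, variance model, array weights, array number, neuron markers, the groups fitted and each array left out.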

Additional observations from a re-analysis of the deposited data

How the results depend on the processing

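No paired analysis was possible because the labels number the arrays through the whole series and no number is shared between groups. For the shared kininogen probe set, the comparison of 3VO with sham at 24 h passed under 28 of 29 alternatives (log2 difference 5.46 to 6.88; 5.53 to 6.88 with 1 array left out). The exception was without replicate 2 of 3VO at 24 h (6.06, adjusted p 0.0589). Against intact arteries at 24 h it passed under 27 of 29 (5.01 to 6.44 with 1 array left out), and not with the array number as a covariate (5.77, adjusted p 0.211) or with these groups fitted alone (5.71, adjusted p 0.0742). At 3 d the difference from sham was 1.82 to 2.73 and never passed, and that from intact arteries was 2.07 to 3.50 and passed only without intact replicate 3. The difference of the effects ran over -4.70 to -3.36 and never passed. With signals raised to the highest bacterial control, an alternative added after seeing the data, the log2 values were 3.82 at 24 h and 0.87 at 3 d, against sham and intact arteries alike.

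Values near 0 changed sign. For kininogen, sham at 24 h against intact was 0.18 without sham replicate 1 and 0.21 without intact replicate 3, a range of -1.22 to 0.21, and sham at 3 d against intact was -0.10 without intact replicate 2, a range of -0.10 to 1.33. With 1 array left out, 3VO against sham at 24 h ranged over -1.51 to 0.19 for Kng2l1 a, -0.15 to 1.32 for b, -0.66 to 0.77 for c, -0.43 to 1.40 for Bdkrb1, and -0.32 to 0.26, -0.47 to -0.31 and -0.17 to 0.45 for Bdkrb2 a, b and c. At 3 d the same ranges were -1.12 to -0.20, 0.24 to 0.71, -1.21 to 0.37, 0.69 to 2.25, -0.84 to 0.55, -0.43 to 0.74 and -0.28 to 0.67. Other sign changes were Bdkrb2 a with array weights (0.036 at 24 h, 0.24 at 3 d) and Kng2l1 c at 24 h with a pseudocount of 64 (0.0067), array weights (0.040), the array number (0.26) and the neuron markers (0.83). None of these 7 probe sets passed between 3VO and sham under any alternative.

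The number of probe sets that passed moved more. For 3VO against sham at 24 h, 8 became 2 with no variance trend, 14 with neuron markers, 22 with these groups alone, 25 with array weights (19 higher, 6 lower), and 1 without replicate 2 of 3VO, the fewest with an array left out. At 3 d, 0 became at most 6 (neuron markers). Against intact arteries, 29 at 24 h ranged over 1 (array number) to 227 and 35 at 3 d over 0 (these groups alone) to 258, the highest values being without intact replicate 3. Of the similar genes, Timp1 passed at 24 h under all 29 alternatives, A2m and Pla1a under 25, Lcn2 under 23, Lilrb4 under 22 and Cp under 21 of 28. The alternative with the brightest probe set per gene does not hold the Cp probe set given here. Gnai2 and Tnfrsf1a against intact arteries at 3 d passed under 18 and 11 of 29. The causes were not tested. The 1000-unit filter removed 4 member probe sets. Signals near the bacterial controls limit the Kng2l1 and receptor values.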
